A study of Mus musculus with 20 samples.

Results

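The combination of glutamine shortage and EIPA was measured from the glutamine-replete baseline in immortalised primary murine cancer-associated fibroblasts (CAFs), the fibroblasts of the tumour stroma. The comparison used 10 of the 20 libraries of the series, 5 from cells in 0.2 mM glutamine with 25 uM EIPA and 5 from cells in 4 mM glutamine with the DMSO vehicle, and it covered the 12350 of 32285 genes with at least 1 TPM (a length-normalised share of the library's transcripts) in at least 5 of the 20 libraries. A further 5 libraries, from cells in 0.2 mM glutamine with DMSO, gave the level that shortage alone had reached, and every group was kept in its medium for 32 h. The 3 groups are called the EIPA, shortage and replete libraries here. The dose follows the titles, since the treatment protocol states EIPA in mM. No library of the series had EIPA at 4 mM glutamine, so the comparison changes glutamine and drug together. The labels do not say whether the 5 libraries of a group came from separate cultures. The p-values therefore reflect no more than the variation among these libraries, which may be technical.

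EIPA, derived from amiloride, blocks sodium-proton exchange and through it macropinocytosis, the engulfment of extracellular fluid from which starved cells can recover amino acids and lipids in the lysosome. Glutamine feeds nucleotide, amino acid and lipid synthesis. Its shortage is sensed through uncharged tRNA, which raises translation of the transcription factor ATF4, and through mTORC1 at the lysosome, whose inactivity lets TFEB and TFE3 enter the nucleus. CAFs range between a myofibroblastic state, marked by contractile and collagen genes, and an inflammatory state, marked by cytokines and chemokines. Sterol synthesis is set by SREBP2, a membrane-bound factor that is released when sterol in the endoplasmic reticulum is low.

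TPM values sum to the same total in each library and keep no depth, so the number of reads behind a level is unknown. Among the 10 libraries compared, 11749 to 12015 genes reached 1 TPM. Replete replicate 5 stood apart, with Ccn1, a matrix-associated protein, at 231 TPM against 379 to 599 in the other replete libraries, and the proteoglycan Dcn at 398 TPM against 123 to 263. Without it 9168 of the 9475 calls of the main comparison were kept (96.8%). EIPA replicates 4 and 5 also differed from replicates 1 to 3 in Scd1, Scd2, Ccnd1, Ccl2, Mt2 and Cdkn1a, and without both of them 8919 calls were kept (94.1%). Of 15 fibroblast markers 13 were tested, and their summed level was 3670 to 4210 TPM in the EIPA libraries, 6450 to 7530 in the shortage libraries and 14300 to 16100 in the replete libraries, while Fap and Lum were near 0 in all 3. Most of this sum was Col1a1, Col1a2, Sparc, Fn1 and Vim. Of the 13 tested, 12 were called lower against replete, and Pdpn rose, at 204, 95.8 and 103 TPM in the same order. With EIPA against shortage 4 were higher and 7 lower. The leukocyte markers Adgre1 and Cd3e were listed at 0 in all 3 groups, as was Ptprc but for traces in the replete libraries, and the 9 markers summed to 22.3 to 25.2, 7.85 to 10.8 and 15.1 to 19.9 TPM. Most of that sum was Cd14, at 15.7, 7.14 and 13.7 TPM, and Cd68, at 7.85, 2.35 and 2.1 TPM. All 3 tested leukocyte markers were called higher with EIPA than in shortage. Against replete 1 of them rose, 1 fell and 1 was not called. Markers of mesothelium, the lining cells of the abdominal cavity, were present, with Wt1 at 34.1, 67.7 and 194 TPM and a summed level of 205 to 325, 388 to 555 and 812 to 1330 TPM, although Calb2 was at 0. In the same order, 8 epithelial markers summed to 89.4 to 121, 133 to 208 and 190 to 403 TPM, and 7 endothelial markers to 7.15 to 10.0, 6.34 to 10.4 and 2.92 to 4.04 TPM. Most of the epithelial sum was Krt19, at 92.4, 150 and 243 TPM, which is counted among the mesothelial markers too. Epcam and Krt8 were below 1 TPM in each group. The 6 mural markers summed to 3.18 to 4.30, 7.15 to 10.2 and 8.09 to 12.6 TPM, and the 5 Schwann cell markers, with Sox10 at 0, to 23.5 to 30.8, 31.3 to 36.8 and 33.8 to 37.2 TPM. The part of these marker levels in the results was not tested. In bulk RNA, fewer cells of a type and less RNA per cell cannot be told apart.

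The scale of the comparison came first. By limma, 6015 genes were higher in the EIPA than in the replete libraries (48.7% of those tested) and 3460 were lower (28.0%) at a Benjamini-Hochberg adjusted p under 0.05. The counts of each gene list below are to be read beside these shares. The median gene was higher by 0.18 (log2), and by 0.14 between the shortage and replete libraries and 0.02 between the EIPA and shortage libraries. Fold changes are therefore given on the log2(TPM + 1) scale relative to the median gene, with their SE after ±, whereas calls are those of the unshifted values. The relative values of the 3 comparisons do not add up exactly, and for scarce genes the 1 TPM added before the logarithm shrinks the fold change below the TPM ratio. The balance of calls depended on scaling. Higher genes made up 63.5% of the calls on TPM and 50.3% after median-of-ratios scaling, with 4634 higher and 4570 lower. Of all tested genes, 627 rose at least 2-fold relative to the median gene (5.08%) and 1170 fell at least 2-fold (9.47%). The 5 EIPA and the 5 replete values did not overlap for 7991 genes (64.7%). Between the EIPA and shortage libraries 3383 genes were higher (27.4%) and 2603 lower (21.1%), and between the shortage and replete libraries 5606 were higher (45.4%) and 3449 lower (27.9%). These 3 comparisons share libraries, so their values are set side by side and not correlated.

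Each gene that shortage had changed at least 2-fold in vehicle was then placed by where it stood with EIPA. There were 1363 such genes. A gene counted as back at the replete level when the 95% confidence interval of its relative difference lay within 0.5 log2 to either side of 0. It counted as past that level when it was called on the far side by at least 0.5. The rest were short of it (moved toward it by EIPA but still called 0.5 or more away), where shortage left them (not called between EIPA and shortage), further away than in shortage alone, or undecided. Being where shortage left it is the lack of a call, with no interval required, so this class can hold genes that EIPA moved. Its share therefore rests on a looser standard than that of genes back at the replete level. In all, 28 genes were back at the replete level (2.05%) and 19 were past it (1.39%). Another 291 were short of it (21.3%), 641 were where shortage had left them (47.0%), 305 were further away (22.4%) and 79 were undecided (5.8%). Of the 19 genes past the replete level, 18 had been lowered by shortage. A further 69 genes stood at least 2-fold from the replete level while shortage alone had kept them within 0.5 of it, 34 above and 35 below. With a width of 0.3 in place of 0.5, 4 genes were back and 33 past, and with 0.7 there were 70 back.

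**Figure D1:**
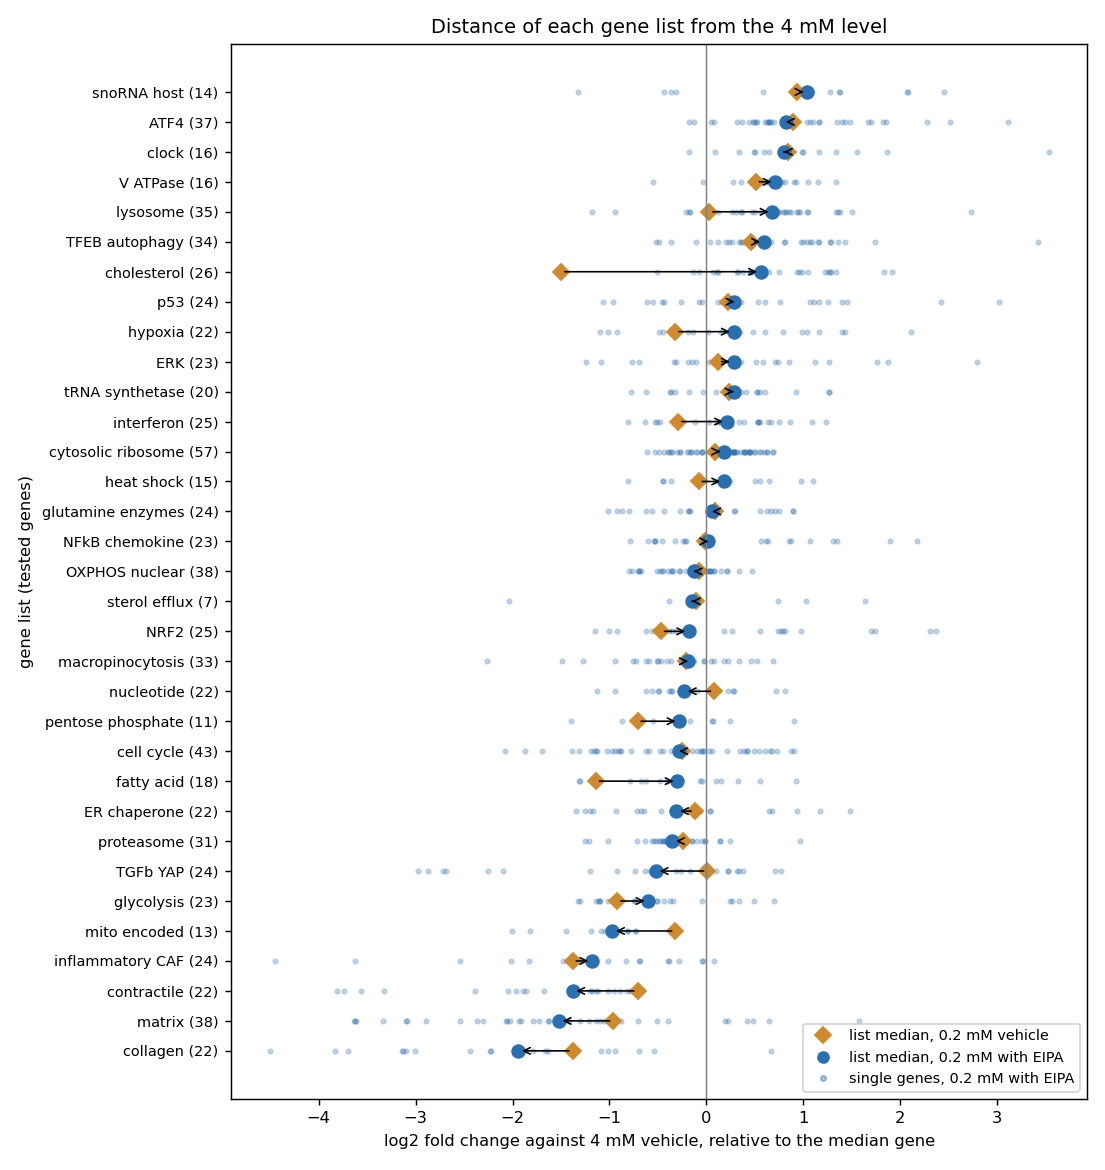
Distance from the replete level of each gene list with the number of tested genes in brackets, as log2 fold change against 4 mM vehicle relative to the median gene. Diamonds are list medians in 0.2 mM vehicle, large circles list medians in 0.2 mM with EIPA, arrows join the pair and small circles are single genes with EIPA; the cholesterol median runs from -1.5 to 0.56, while the collagen median runs from -1.38 to -1.94.

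Genes of cholesterol synthesis and uptake stood above the replete level. Of 26 genes, all tested, 22 rose, 1 fell and 3 were not called, with a median of 0.56, where the median over all tested genes is 0 by construction. Under median-of-ratios scaling 20 rose and 1 fell. The list's median was -1.5 in the shortage libraries against replete and 2.15 in the EIPA against the shortage libraries. Of its 22 genes lowered at least 2-fold by shortage, 11 were past the replete level, 4 were back at it, 1 was short of it and 6 were undecided. Leaving out EIPA replicates 4 and 5 gave 11 past and 5 back, and leaving out replete replicate 5 gave 14 past and 3 back.

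Insig1, the membrane protein that holds the SREBP2 complex in the endoplasmic reticulum when sterol is plentiful (ENSMUSG00000045294, chr5:28071363-28078662 on the plus strand, mm10), was the list's gene farthest above. It was at 269.7, 269.8, 273, 344 and 307 TPM in the 5 EIPA libraries. The shortage libraries held 16.9, 17.8, 19.1, 16.7 and 18.0 TPM and the replete libraries 56.5, 64.2, 59.9, 75.8 and 84.6 TPM. Every EIPA library exceeded every replete library, and every replete library exceeded every shortage library, with a relative log2 fold change of 1.92 ± 0.10 against replete (limma adjusted p = 2e-13). Idi1, which interconverts the 2 isoprene units of the pathway (chr13:8885501-8892451, plus strand), was at 289.9, 289, 300, 361 and 393 TPM with EIPA, 27.2, 28.3, 27.3, 24.0 and 25.6 TPM in shortage and 106, 119.6, 111, 128 and 123 TPM when replete. The 3 groups did not overlap here either, and the relative change was 1.28 ± 0.09 (limma adjusted p = 4.3e-12).

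Other enzymes past the replete level lie at several steps of the route, though not at every step. Acat2, which makes the first intermediate, rose by 0.96, and Mvd, which makes isopentenyl diphosphate, by 1.29. Fdps, which makes farnesyl diphosphate, was at 601, 79.6 and 282 TPM in the EIPA, shortage and replete libraries and rose by 0.93 ± 0.11. Lss, the cyclase that makes lanosterol, rose by 1.05, and Cyp51 and Msmo1, which demethylate sterol intermediates, by 1.34 and 1.22. Stard4, a carrier of cholesterol between membranes, rose by 0.75. Mvk, mevalonate kinase, was the exception in direction, at 54.9, 26.9 and 69.2 TPM, and fell by 0.51 relative to the median gene.

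The sterol genes near the replete level include the regulator of the pathway itself. Srebf2, which encodes SREBP2, stood at 0.11, Dhcr7, the last reductase on 1 branch, at 0.07, Hsd17b7 at 0.12 and Nsdhl at 0.33, all with intervals inside 0.5. A gene inside that margin can still be called. Nsdhl, Srebf2 and Hsd17b7 were called higher than replete (limma adjusted p = 9.7e-06, 0.0096 and 0.017). Every EIPA value of Nsdhl and of Hsd17b7 was above every replete value. Scap, the escort of SREBP2, was not called against replete, at 44, 42.3 and 41.1 TPM (-0.08 ± 0.07, limma adjusted p = 0.19).

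**Figure D2:**
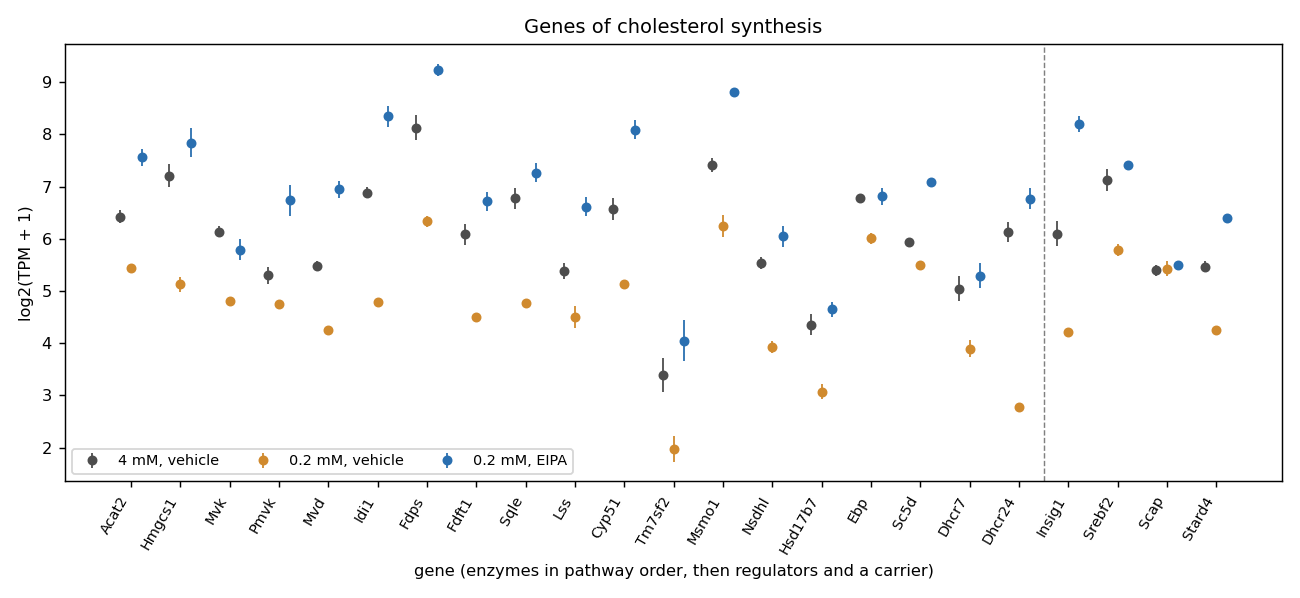
Level of 23 genes of the cholesterol list as log2(TPM + 1), mean of 5 libraries per group with bars of 1 SD; enzymes left of the dashed line are in pathway order, regulators and a sterol carrier right of it. For 19 of the 23 genes the EIPA level was called higher than the 4 mM level.

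The promoter of Hmgcs1, the first committed enzyme of the pathway (at 231, 34 and 148 TPM), carried the sterol element searched for, TCACNCCAC on either strand, and is shown because it was the only match among these genes. Promoters were the 300 bases from 250 before to 50 after the start site, from RefSeq on GRCm38.p6, and 18 of the 26 genes had an entry. The element was in 1 of these 18 (5.56%), in 0 of 12 promoters of genes past the replete level and in 1.34% of the promoters of all tested genes. The sequence runs 5′ to 3′ on the plus strand of GRCm38.p6, chr13:119690189-119690247, and capitals mark the element, which starts at position -137 from the start site.
Hmgcs1: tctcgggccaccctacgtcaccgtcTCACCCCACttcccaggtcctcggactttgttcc

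Fatty acid genes came back unevenly. Of 19 genes 18 were tested, and 5 rose, 7 fell and 6 were not called against replete, with a median of -0.30, and under median-of-ratios scaling 3 rose and 10 fell. The list's median was -1.14 in shortage. Fasn, fatty acid synthase, was at 393, 411, 408, 585 and 496 TPM with EIPA, 117, 123, 119, 126 and 109 TPM in shortage and 210.1, 196, 222, 220.2 and 209.6 TPM when replete. All 5 EIPA values were above all replete values, and the change was 0.92 ± 0.09 (limma adjusted p = 6.2e-10). Acss2, which makes acetyl-CoA from acetate, was past the replete level at 0.55, and Acly, which makes it from citrate, was back at it at 0.15. Acss2 was at 8.95, 6.14, 7.97, 16.8 and 12.9 TPM with EIPA and 4.98 to 6.84 TPM when replete, so the groups overlapped. Without EIPA replicates 4 and 5, its 2 highest, no gene of the list was past the replete level.

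Among the desaturases, Scd1, which makes monounsaturated from saturated fatty acids, was at 110.1, 94.3, 97.1, 156 and 148 TPM with EIPA and 85.3, 95, 105, 121 and 146 TPM when replete, against 35.5, 35.0, 37.8, 31.3 and 43.0 TPM in shortage. The EIPA and replete values overlapped, with -0.05 ± 0.16 (limma adjusted p = 0.49), and without EIPA replicates 4 and 5, its 2 highest, the value was -0.28 and its interval no longer lay within 0.5. Scd2, its paralog, was at 536, 502, 521, 819.6 and 895 TPM with EIPA, 76.3, 75.2, 82.0, 104 and 114 TPM in shortage and 589.8, 697, 763, 899 and 1046 TPM when replete. Replicates 4 and 5 were again the highest with EIPA, and the difference from replete was -0.48 ± 0.18 (limma adjusted p = 0.13), or -0.75 without them (limma adjusted p = 0.0047). Under median-of-ratios scaling, with all libraries, Scd2 was called lower at -0.49 (limma adjusted p = 0.016). Reads of Scd1 and Scd2 can be shared. Fads2, the first enzyme of polyunsaturated fatty acid synthesis, remained short of the replete level at 114, 36.1 and 253 TPM (-1.30 ± 0.20), as did Slc25a1, the mitochondrial citrate carrier (-0.79), and Srebf1, which encodes SREBP1 (-0.62). Mid1ip1, which activates acetyl-CoA carboxylase, was where shortage had left it, at 88.2, 84.4 and 197 TPM. Of 7 tested genes of sterol efflux 3 rose, 1 fell and 3 were not called, with a median of -0.15 (3 and 2 under median-of-ratios scaling). That median was 0.02 without EIPA replicates 4 and 5 and 0 under quantile scaling. The sterol export pump Abca1 fell by 2.04 relative to the median gene, at 0.518, 2.27 and 4.93 TPM, whereas the lipid carrier Apoe rose by 1.64 ± 0.18, at 15.2, 8.61 and 3.64 TPM.

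**Figure D3:**
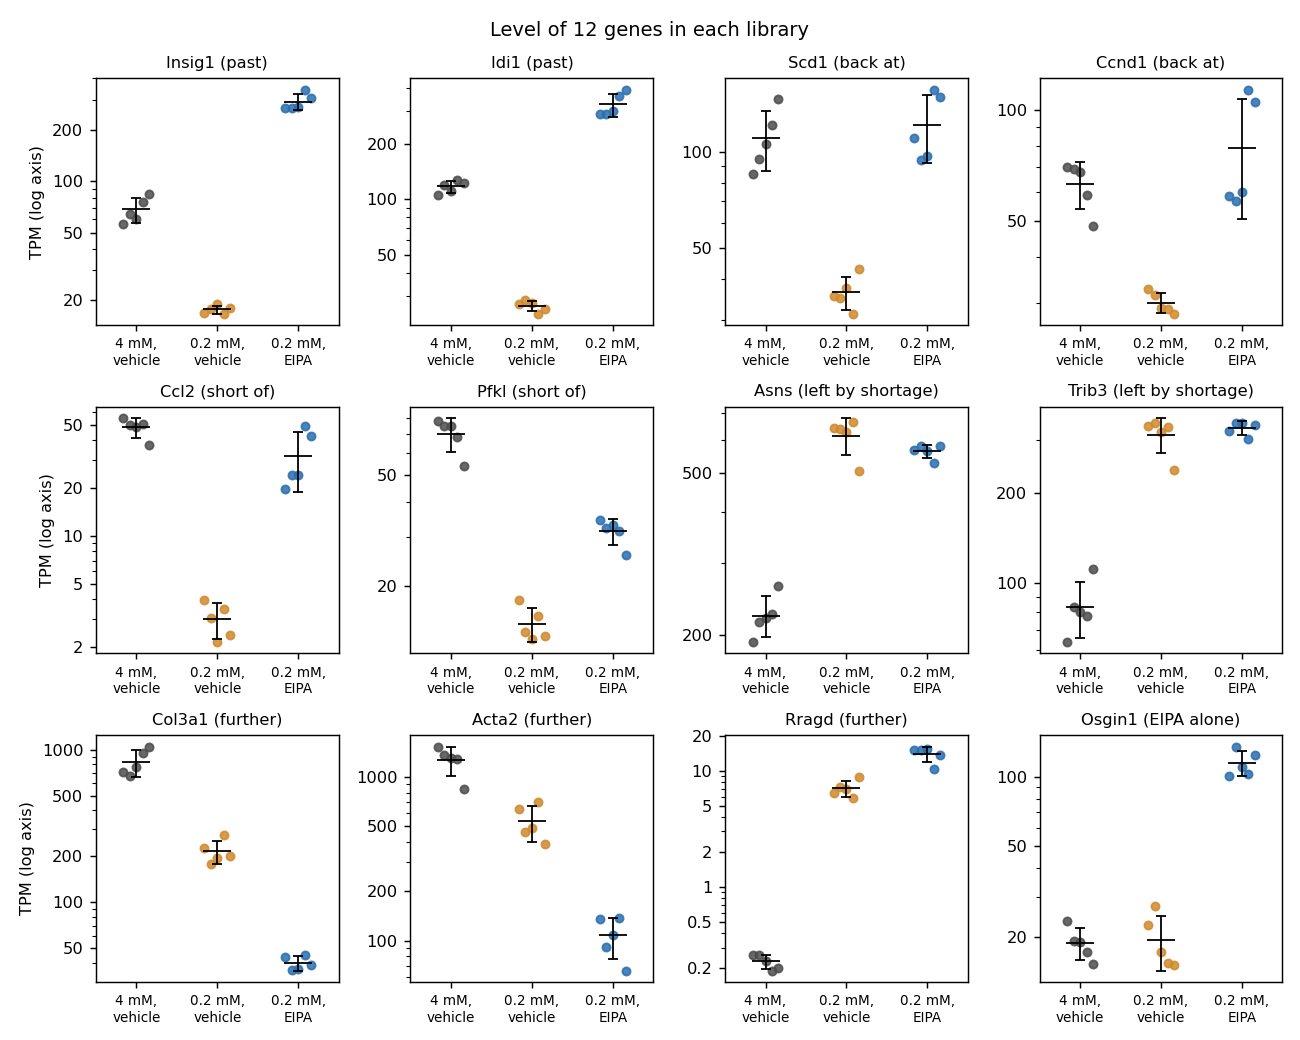
TPM of 12 genes in each of the 15 libraries on log axes, with points for libraries in the order of their replicate numbers, a long bar for the group mean and error bars of 1 SD; brackets give the position with EIPA relative to the 4 mM level. Insig1 and Idi1 lie above the 4 mM values with EIPA, Asns and Trib3 lie near the shortage values, and Col3a1 and Acta2 lie below shortage.

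Contractile genes, which mark the myofibroblastic state, were lower throughout. Of 24 genes 22 were tested and all 22 fell, with a median of -1.38, and 17 fell at least 2-fold. The list's median was -0.71 in shortage against replete and -0.61 with EIPA against shortage. Of the 9 genes that shortage had lowered at least 2-fold, 8 were further down with EIPA and 1, Mylk, was where shortage had left it. The calls were the same number under median-of-ratios scaling and without EIPA replicates 4 and 5.

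Acta2, smooth muscle actin (ENSMUSG00000035783, chr19:34241090-34255590, minus strand), was at 135, 91.7, 108, 138 and 65.7 TPM with EIPA. It was at 635, 457, 484, 703 and 387 TPM in shortage and 1525, 1364, 1294, 1285 and 842 TPM when replete. The groups stepped down without overlap, replicate 5 was lowest in each of the 3, and the change from replete was -3.74 ± 0.21 (limma adjusted p = 2.3e-12). Tagln, transgelin, an actin-binding protein, was at 67.7, 52.4, 58.6, 53.4 and 25.9 TPM with EIPA, 359, 261, 287, 368 and 202 TPM in shortage and 777, 649.7, 629, 668 and 447 TPM when replete, with the same order and the same lowest replicate (-3.81 ± 0.22). Calponin Cnn1 fell by 3.56 and myosin light chain Myl9 by 3.33. Of smaller size were the falls of the non-muscle myosin Myh10 (-1.38), tropomyosin Tpm1 (-1.68) and vinculin Vcl (-1.86), which anchors actin at adhesions. Zyx, zyxin, a focal adhesion protein, was at 559, 1270 and 1280 TPM, so that it fell with EIPA (-1.38) while shortage alone had kept it within 0.5 of replete.

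Promoters of 2 of these genes are shown because they carry a CArG box, the site of serum response factor, which drives contractile genes. The box was searched by its name's consensus, which reads the same on both strands, and was in 4 of 20 contractile promoters (20%), against 1.58% of promoters of all tested genes and 1.63% of all RefSeq promoters. A match describes the letters only. The Myl9 line covers chr2:156775278-156775337 and the Vcl line chr14:20929148-20929205, both on the plus strand of GRCm38.p6, 5′ to 3′, with the box in capitals at positions -161 and -227.
Myl9: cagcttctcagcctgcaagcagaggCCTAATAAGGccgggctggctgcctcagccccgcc
Vcl: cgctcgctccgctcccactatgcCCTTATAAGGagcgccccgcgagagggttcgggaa

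Collagens fell with 1 exception. Of 25 genes 22 were tested, 21 fell and 1 rose, with a median of -1.94, and 18 fell at least 2-fold. Of the 14 that shortage had lowered at least 2-fold, 9 were further down and 5 were where shortage had left them. Col1a1, the more abundant of the type I collagen chains (chr11:94936224-94953042, plus strand), was at 282, 254, 211, 297 and 264 TPM with EIPA, 744, 690.3, 573, 761 and 607 TPM in shortage and 3134, 3137, 3046, 3425 and 3697 TPM when replete. The groups stepped down without overlap, and the change was -3.83 ± 0.11 (limma adjusted p = 1.6e-16). Col3a1, type III collagen (chr1:45311538-45349706, plus strand), was at 43.7, 36.0, 36.3, 45.4 and 38.7 TPM with EIPA, 227, 179, 196, 275 and 200.1 TPM in shortage and 713, 668, 765, 953 and 1047 TPM when replete. No values overlapped, and its -4.5 ± 0.18 was the largest fall of the list. Of the basement membrane chains Col4a1 fell by 0.94, Col4a2 by 0.54, Col4a5 by 0.70 and Col4a6 by 1.93, and Col7a1, of anchoring fibrils, was the 1 that rose (0.67 ± 0.19, at 9.97, 4.38 and 5.17 TPM).

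Other matrix genes followed the collagens, with 31 of 38 tested genes lower and 6 higher, a median of -1.52, and 28 down at least 2-fold. The counts were 32 lower and 5 higher under median-of-ratios scaling. Fibronectin Fn1, at 867, 1670 and 2380 TPM, fell by 1.63, and Sparc, a collagen-binding glycoprotein, at 692, 1450 and 2500 TPM, fell by 2.03. The matricellular genes Tnc and Thbs1 fell by 3.61 and 3.34, and the crosslinking enzyme Loxl2 by 3.64. The small proteoglycans Ogn and Dcn fell by 3.63 and 3.10, where Dcn was the gene in which replete replicate 5 was high. Matrix metalloproteinases stood elsewhere. Mmp13, a collagenase, was past the replete level at 33.1, 6.7 and 17.6 TPM (0.65 ± 0.25), Mmp3, stromelysin, was short of it at 10.8, 1.03 and 17.8 TPM (-0.88 ± 0.25), and Mmp10 was undecided at 0.48. Loxl4, another crosslinking enzyme, rose in shortage and was left there, at 13.2, 14.6 and 3.3 TPM. Among genes of TGF-beta and YAP signalling, 8 of 24 rose, 10 fell and 6 were not called, with a median of -0.52 (6 and 13 under median-of-ratios scaling). The ligand Tgfb2 fell by 2.98, at 3.29, 20.4 and 28.8 TPM, while Tgfb1 rose by 0.77, and the YAP targets Ccn1, Ccn2 and Ankrd1 were not called, at -0.63, -0.58 and -0.17. Without replete replicate 5 the list had 7 higher and 12 lower, and Ccn1 was called lower at -0.84 (limma adjusted p = 0.0095), as it was under median-of-ratios scaling at -0.64 (limma adjusted p = 0.025), whereas Ccn2 at -0.79 (limma adjusted p = 0.075) and Ankrd1 at -0.36 (limma adjusted p = 0.55) were not called without that library.

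The largest falls of all were spread over several functions. By the rule for named genes, the 10 largest were those of Lrrn4, Ptn, Col3a1, Il33, Gas1, Sema3c, Medag, Itga11, Igf1 and Olfml3. Lrrn4, a leucine-rich repeat protein listed among the mesothelial markers, was at 0.85, 0.46, 0.79, 0.94 and 0.98 TPM with EIPA, 2.31, 1.42, 1.15, 3.04 and 1.53 TPM in shortage and 34.6, 32.8, 42.3, 57.5 and 63.1 TPM when replete. The fall was almost complete in shortage alone (-4.84 ± 0.28 with EIPA, limma adjusted p = 4e-12). Lrrn4 was not called with EIPA against shortage (-0.67 ± 0.28, limma adjusted p = 0.062), but it counted as further away when replicate numbers were fitted as blocks. Of the 9 tested mesothelial markers 8 fell, with a median of -2.65, and 9 fell under median-of-ratios scaling. Growth factor genes among the 10 include Ptn, pleiotrophin, at 0.326, 2.7 and 30.7 TPM, and Igf1 at 1.56, 3.39 and 34.7 TPM. Gas1, a surface protein linked to growth arrest, was at 9.92, 35.1 and 197 TPM, Itga11, a collagen-binding integrin, at 0.322, 1.15 and 17.8 TPM, and the guidance factor Sema3c at 5.96, 34.4 and 108 TPM.

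Inflammatory CAF genes remained below the replete level, though a portion of them had moved up from shortage. Of 24 tested genes (of 34) 18 fell, 1 rose and 5 were not called, with a median of -1.18, and 15 fell at least 2-fold (0 rose and 19 fell under median-of-ratios scaling). The list's median was -1.38 in shortage against replete and 0.34 with EIPA against shortage. Of its 15 genes changed at least 2-fold by shortage, 7 were short of the replete level, 4 were where shortage had left them, 2 were further down and 2 were undecided.

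Cxcl12, the chemokine that binds CXCR4, was at 724, 664, 735, 801 and 586 TPM with EIPA, 569, 538, 530.0, 596 and 551 TPM in shortage and 1337, 1379, 1402, 1414 and 1336 TPM when replete. All EIPA values lay far below the replete values and all but 1 above the shortage range, whose highest value was 596 TPM (-1.15 ± 0.06, limma adjusted p = 9.6e-12). Ccl2, which attracts monocytes, was at 19.8, 24.0, 24.3, 48.8 and 42.3 TPM with EIPA (chr11:82035571-82037453, plus strand). Shortage had it at 3.97, 3.04, 2.15, 3.49 and 2.37 TPM and the replete libraries at 55.0, 49.8, 48.2, 50.5 and 37.0 TPM. Replicates 4 and 5 reached into the replete range while replicates 1 to 3 stayed under it, the change was -0.83 ± 0.21 (limma adjusted p = 0.0072), and without those 2 replicates it was -1.21 (limma adjusted p = 2.6e-05). The neutrophil chemokine Cxcl1 (-1.33), the monocyte chemokine Ccl7 (-1.83) and the growth factor receptor Pdgfra (-1.20) were likewise short of replete.

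Other members did not move up. Il33, an alarmin cytokine, was at 0.61, 0.43, 0.36, 0.69 and 0.59 TPM with EIPA, 1.02, 0.72, 0.42, 1.41 and 0.71 TPM in shortage and 23.2, 24.3, 32.4, 28.1 and 37.2 TPM when replete. It was left near 0 in both low-glutamine groups (-4.45 ± 0.22). Il6, the defining cytokine of this state, was scarce, at 0.57, 0.27, 0.46, 0.25 and 0.59 TPM with EIPA, 0.57, 0.76, 0.89, 0.46 and 1.29 TPM in shortage and 2.04, 1.94, 1.32, 1.44 and 1.11 TPM when replete. The EIPA values lay below all replete values and overlapped those of shortage (-1.02 ± 0.14, limma adjusted p = 1.8e-05), at levels whose read support is unknown. Lif, a cytokine of the same family, fell by 1.44, at 4.41, 8.76 and 11.8 TPM. Among NF-kappa-B subunits, their feedback inhibitors and further chemokines, 11 of 23 rose, 4 fell and 8 were not called (10 and 6 under median-of-ratios scaling). The share that rose is near the 48.7% of all tested genes, of which 28.0% fell. The scavenger receptor and chemokine Cxcl16 rose by 2.17, at 31.5, 8.32 and 5.37 TPM, Tnfaip2 by 1.89, and the adhesion molecule Vcam1 fell by 0.53. Of 25 interferon genes 10 rose (below the 48.7% of all tested genes), 1 fell and 14 were not called, with a median of 0.21 (8 and 3 under median-of-ratios scaling). Without EIPA replicates 4 and 5 the count was 7 higher and 4 lower, with a median of 0.05. The membrane tether Bst2 rose by 1.23 ± 0.24.

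**Figure D4:**
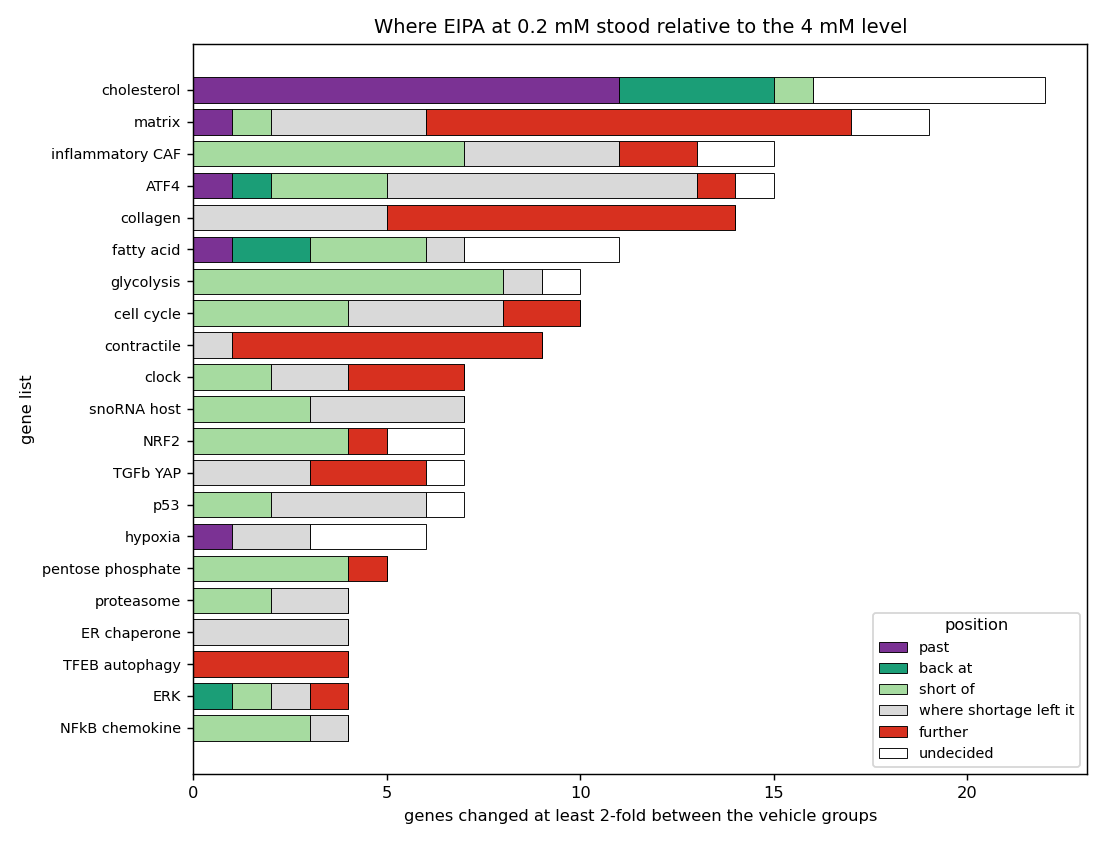
Number of genes in each list that shortage changed at least 2-fold in vehicle, split by where they stood with EIPA relative to the 4 mM level; lists with at least 4 such genes are drawn. Cholesterol genes fill the past and back classes (11 and 4 of 22), while collagen (9 of 14) and contractile genes (8 of 9) fill the class further away.

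Genes of the amino acid response stood above the replete level. Of 37 tested ATF4 targets 33 rose, 0 fell and 4 were not called, with a median of 0.82, and 16 rose at least 2-fold (32 rose and 0 fell under median-of-ratios scaling). The list's median was 0.89 in shortage against replete and 0.06 with EIPA against shortage. Of the 15 members that shortage had changed at least 2-fold, 8 were where it had left them and 3 were short of replete, near the 47.0% and 21.3% of all 1363 such genes, and 1 each was back at replete, past it, further away and undecided. Sequences of 4 members are shown because their promoters carry the amino acid response element that ATF4 binds, searched as TGATGNAA on either strand. It was in 10 of 31 promoters of this list (32.3%) and 5 of 12 of the tRNA synthetases (41.7%), against 2.62% of promoters of all tested genes and 3.97% of all RefSeq promoters. Capitals mark the element, read as TTGCATCA where it lies on the other strand. The Asns line covers chr6:7693200-7693257 on the minus strand, the Atf3 line chr1:191183411-191183468 on the minus strand, the Chac1 line chr2:119351024-119351081 on the plus strand and the Slc7a11 line chr3:50443628-50443685 on the minus strand, all 5′ to 3′ along the gene from GRCm38.p6. The elements start at -23, -110, -193 and -47, and Slc7a11 holds a second one at -66.
Asns: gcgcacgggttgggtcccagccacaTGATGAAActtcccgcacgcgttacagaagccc
Atf3: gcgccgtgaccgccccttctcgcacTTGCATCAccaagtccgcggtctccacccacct
Chac1: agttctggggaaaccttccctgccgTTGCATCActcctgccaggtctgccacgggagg
Slc7a11: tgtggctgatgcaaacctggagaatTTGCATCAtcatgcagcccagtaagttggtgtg

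Asns, asparagine synthetase, which uses glutamine as its nitrogen donor, was at 569, 579, 565, 527 and 579.6 TPM with EIPA, 641, 639, 628, 667 and 505 TPM in shortage and 192, 215, 221, 225 and 263 TPM when replete. The EIPA values lay inside the range of shortage only through shortage replicate 5, at 505 TPM, and below all its other libraries. Against shortage the change was not called (-0.15 ± 0.10, limma adjusted p = 0.34). Every EIPA value was above every replete value (1.16 ± 0.10, limma adjusted p = 1.4e-10). Trib3, a pseudokinase that feeds back on ATF4 (chr2:152337422-152344032, minus strand), was at 322, 343, 343, 302 and 336 TPM with EIPA, 334, 342, 320.5, 332 and 239 TPM in shortage and 63.6, 83.0, 80.0, 77.6 and 112 TPM when replete. Its EIPA and shortage values overlapped, and both groups were above every replete value (1.82 ± 0.16). Nars, listed with the tRNA synthetases, charges asparagine onto tRNA and was at 1097, 1047, 998, 889.6 and 893 TPM with EIPA, 1099, 1068, 1015, 1078 and 636 TPM in shortage and 352, 359, 334, 356 and 401 TPM when replete. Shortage replicate 5 was the lowest of its group in these 3 genes, and leaving it out gave medians of the ATF4 list of 0.90 in shortage and -0.01 with EIPA against shortage.

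Several members regulate the stress response itself. Ppp1r15a, which dephosphorylates eIF2-alpha, was at 219, 178 and 21.8 TPM and further up than in shortage (3.11 ± 0.11). Atf3 (2.51) and Nupr1 (2.28), both stress-induced nuclear regulators, were short of replete, having moved back a little. Slc7a11, the cystine importer, rose by 1.70 ± 0.18, at 22.1, 13 and 5.39 TPM, and Chac1, which degrades glutathione, by 1.43. Ddit4, an inhibitor of mTORC1, was lower in shortage and past the replete level with EIPA, at 60.1, 11.2 and 23.4 TPM (1.16 ± 0.20). Pycr1, of proline synthesis, was back at the replete level (0.08). Ddit3, a pro-apoptotic factor, stands in the table under 2 IDs whose reads may be shared, so its level under the first of them, 596, 683 and 126 TPM, is uncertain. Of 20 tRNA synthetases 14 rose, 5 fell and 1 was not called, with a median of 0.28 (12 and 6 under median-of-ratios scaling). Wars, for tryptophan, rose by 1.27, and Kars, for lysine, fell by 0.78.

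Among 24 genes whose products carry, make, use or break down glutamine or glutamate 12 rose, 7 fell and 5 were not called, near the 48.7% and 28.0% of all tested genes, with a median of 0.06 (10 and 9 under median-of-ratios scaling). Glul, glutamine synthetase, was at 15.8, 17.0, 14.8, 13.9 and 15.4 TPM with EIPA, 13.2, 14.7, 14.6, 13.4 and 15.6 TPM in shortage and 13.4, 14.8, 13.1, 15.7 and 20.3 TPM when replete. All 3 groups overlapped (-0.17 ± 0.12, limma adjusted p = 0.96). The glutamine transporters Slc1a5 and Slc38a2 rose by 0.89 and 0.63, and glutamate dehydrogenase Glud1 and the hexosamine enzyme Gfpt1 fell by 0.80 and 1.01. In nucleotide synthesis 8 of 22 rose, 9 fell and 5 were not called (5 and 13 under median-of-ratios scaling). Ribonucleotide reductase subunits Rrm1 and Rrm2 fell by 1.13 and 0.94, with Rrm1 at 113, 210 and 221 TPM, and Umps, of pyrimidine synthesis, rose by 0.81.

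Cell cycle genes moved in both directions. Of 43 tested genes 18 rose, 20 fell and 5 were not called, with a median of -0.28, and 10 fell and 0 rose at least 2-fold (13 and 22 called under median-of-ratios scaling). Cdt1 and Cdc6, which license replication origins, rose by 0.90 and 0.68, and the replication clamp Pcna by 0.87. Plk1, a kinase of mitotic entry, was at 24.7, 23.4, 25.0, 25.5 and 25.3 TPM with EIPA, 23.7, 21.2, 21.7, 24.2 and 18.9 TPM in shortage and 95.1, 93.6, 94.2, 93.9 and 99.5 TPM when replete, so the EIPA values were far below the replete ones and overlapped those of shortage (-2.08 ± 0.06, limma adjusted p = 2.8e-16). Ube2c and Cdc20, which work with the anaphase-promoting complex, fell by 1.87 and 1.70. Mki67, the proliferation marker, fell by 0.62, at 41.8, 51 and 57.3 TPM. Ccnd1, cyclin D1, listed with the ERK targets, was at 58.4, 56.8, 60.1, 114 and 105 TPM with EIPA, 32.7, 31.5, 29.1, 28.9 and 28.1 TPM in shortage and 70.2, 69.0, 67.9, 59.0 and 48.6 TPM when replete. EIPA replicates 4 and 5 lay above all replete libraries, and the other 3 fell inside the replete range. The low end of that range was replete replicate 5, and the EIPA values of 58.4 and 56.8 TPM lay below the other replete libraries. The relative change was 0.09 ± 0.19 (limma adjusted p = 0.22). Ccnd1 was undecided when replicate numbers were fitted as blocks, and undecided at -0.26 without EIPA replicates 4 and 5.

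Of 24 p53 targets 15 rose, 6 fell and 3 were not called, with a median of 0.29, and 8 rose at least 2-fold (15 and 6 under median-of-ratios scaling). Cdkn1a, the cyclin-dependent kinase inhibitor p21, was at 68.4, 71.6, 61.8, 37.3 and 41.9 TPM with EIPA, 51.8, 51.8, 53.9, 38.4 and 57.4 TPM in shortage and 8.37, 7.11, 8.56, 7.44 and 9.64 TPM when replete. The EIPA and shortage values overlapped far above the replete ones (2.42 ± 0.16, limma adjusted p = 4.7e-12), and EIPA replicates 4 and 5 were the lowest of theirs. The other EIPA replicates lay above every shortage value. Without replicates 4 and 5 Cdkn1a counted as further from replete than in shortage, at 2.73. Gadd45a, a stress gene of growth arrest, was at 352, 449 and 38 TPM (3.02). In the ERK list 12 of 23 rose, 4 fell and 7 were not called, with a median of 0.28 (11 and 7 under median-of-ratios scaling). The share that rose is near the 48.7% of all tested genes. Dusp4, a phosphatase of ERK, was at 333, 367, 358, 351 and 299 TPM with EIPA, 155, 164, 147, 129 and 114 TPM in shortage and 59.9, 51.9, 42.4, 40.5 and 26.5 TPM when replete. The groups rose in steps without overlap, and the gene was further from replete than in shortage (2.79 ± 0.19). Etv5, a transcription factor downstream of ERK, stood within 0.5 of replete in shortage and rose with EIPA, at 39.4, 12 and 9.74 TPM (1.76 ± 0.17), and Fosl1, a partner of JUN, rose by 1.87 ± 0.29.

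Lysosomal genes stood above the replete level. Of 35 tested genes 28 rose, 2 fell and 5 were not called, with a median of 0.68 (26 and 4 under median-of-ratios scaling). In shortage the median was 0.03, and with EIPA against shortage it was 0.43. Gpnmb, a lysosomal membrane glycoprotein, was at 79.0, 75.4, 72.9, 78.9 and 69.1 TPM with EIPA, 26.4, 25.0, 24.3, 18.6 and 24.9 TPM in shortage and 11.3, 11, 8.47, 7.43 and 7.99 TPM when replete. No values overlapped, and the change was 2.73 ± 0.12 (limma adjusted p = 1.2e-14). The proteases Ctsd and Ctsl rose by 0.93 and 1.05, the membrane protein Lamp1 by 0.81, the cholesterol transporter Npc1 by 1.04 and progranulin Grn by 1.38. Gla, alpha-galactosidase, was at 53.5, 21 and 16 TPM, above replete with EIPA (1.5 ± 0.09) where shortage alone had kept it within 0.5. Scarb2, the receptor that carries glucocerebrosidase to the lysosome, fell by 1.18.

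Genes of the proton pump and of autophagy were also higher. Of 16 subunits of the V-ATPase, which acidifies the lysosome, 15 rose and 1 fell, with a median of 0.71 against 0.51 in shortage (14 and 1 under median-of-ratios scaling). Atp6v0b rose by 1.34 ± 0.07, and Atp6v0a1, the 1 that fell, by 0.55. Of 34 genes of TFEB signalling and autophagy 30 rose, 3 fell and 1 was not called, with a median of 0.59 against 0.46 in shortage (28 and 3 under median-of-ratios scaling), and 12 rose at least 2-fold. Its 4 genes raised at least 2-fold by shortage, Rragd, Sqstm1, Flcn and Atg14, were all further up with EIPA.

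Rragd, a GTPase that recruits mTORC1 to the lysosome (chr4:32983037-33022180, plus strand), was at 15.2, 15.2, 15.5, 10.3 and 13.8 TPM with EIPA, 6.39, 7.24, 7.03, 5.79 and 8.86 TPM in shortage and 0.26, 0.26, 0.23, 0.19 and 0.20 TPM when replete. The replete values were near 0 and no groups overlapped (3.42 ± 0.11, limma adjusted p = 2.3e-16). Sqstm1, the autophagy receptor p62, was at 2320, 1840 and 613 TPM (1.74 ± 0.10), and Map1lc3b, which coats autophagosomes, rose by 1.15. Tfeb itself fell by 0.52, while Tfe3 stood at 0.12.

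The promoters of Ctsd and Gla are printed because they hold the CLEAR element TCACGTGA, the palindromic site of TFEB and its relatives. It was in 4 of 29 lysosomal promoters (13.8%), 3 of 11 V-ATPase promoters (27.3%) and 1 of 30 promoters of the TFEB and autophagy list (3.33%), against 2.28% for all tested genes and 0.974% of all RefSeq promoters. The lines cover chr7:142387894-142387951 and chrX:134601168-134601225, both on the minus strand of GRCm38.p6 and 5′ to 3′ along the gene, with the element in capitals at -99 and -195, and Gla holds a second one at -228.
Ctsd: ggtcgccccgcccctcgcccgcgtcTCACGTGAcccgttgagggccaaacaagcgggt
Gla: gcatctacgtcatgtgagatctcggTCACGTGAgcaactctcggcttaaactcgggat

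Genes of macropinocytosis and sodium-proton exchange, the process and the targets that EIPA inhibits, gave a mixed picture. Of 33 tested genes 8 rose, 13 fell and 12 were not called, with a median of -0.19 (6 and 21 under median-of-ratios scaling). Slc9a3r1, a scaffold that binds exchangers at the membrane, fell by 2.26 and was where shortage had left it, at 130, 140 and 555 TPM. The syndecan Sdc1 fell by 1.27, annexin Anxa2 by 1.49 and cofilin Cfl1 by 0.76. Rac1, the GTPase of membrane ruffles, was at 567, 600 and 568 TPM (-0.18), and Pikfyve, a lipid kinase of endosomes, rose by 0.69.

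Glycolytic genes were more often lower than higher against replete. Of 23 tested genes 14 fell, 4 rose and 5 were not called, with a median of -0.60 (17 and 3 under median-of-ratios scaling), and the median in shortage was -0.92. Of 10 genes that shortage had lowered at least 2-fold, 8 were short of replete, 1 was left and 1 was undecided. Under median-of-ratios scaling, and without EIPA replicates 4 and 5, it was 6 that were short. Pfkl, the liver-type phosphofructokinase, was at 34.3, 32.2, 33.1, 31.5 and 25.7 TPM with EIPA, 17.8, 13.7, 12.9, 15.5 and 13.2 TPM in shortage and 78.1, 74.7, 74.8, 68.5 and 53.5 TPM when replete. The EIPA values sat between the other 2 groups without overlap (-1.30 ± 0.11, limma adjusted p = 6.9e-09). Lactate dehydrogenase Ldha fell by 1.14, enolase Eno1 by 1.10 and the lactate exporter Slc16a3 by 1.11. Pdk1, which inhibits pyruvate dehydrogenase, was where shortage had left it (-1.32). Slc2a1, the glucose transporter GLUT1, was at 38.5, 37.5, 40.9, 43.7 and 36.8 TPM with EIPA, 22.5, 19.7, 18.0, 20.9 and 15.2 TPM in shortage and 46.9, 49.4, 46.9, 43.5 and 36.6 TPM when replete. The EIPA and replete values overlapped (-0.34 ± 0.11, limma adjusted p = 0.15), although the fall was called under median-of-ratios scaling (limma adjusted p = 0.0086). Of 22 hypoxia genes 14 rose, 4 fell and 4 were not called, with a median of 0.28 (12 and 6 under median-of-ratios scaling). The stress gene Ndrg1 and the growth factor Vegfa rose by 2.11 and 1.43. In the pentose phosphate and NADPH list of 11, 4 rose and 5 fell (2 and 7 under median-of-ratios scaling), and Idh1 and Pgd, which make NADPH, were short of replete at -0.87 and -0.55.

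Transcripts encoded in the mitochondrial genome were lower than in either vehicle group. They made up 5.18, 5.67, 5.40, 5.43 and 6.78% of TPM in the EIPA libraries, 8.55, 8.95, 8.96, 8.66 and 9.24% in shortage and 9.30, 10.52, 12.31, 9.80 and 9.93% when replete. Every EIPA share was below every other share. The means were 5.69% ± 0.63 (SD, n = 5) with EIPA and 10.37% ± 1.17 (SD, n = 5) when replete, a difference of -4.68 percentage points. The two-sided exact permutation p was 0.0079, the smallest that 252 assignments allow, and it was the same adjusted over the 3 pairs of groups. This p treats the libraries as unpaired, and whether same-numbered libraries are pairs was not tested. With the replicate numbers taken as pairs, the exact p was the smallest that 5 pairs allow, which is above 0.05. All 13 mRNAs fell, with a median of -0.97. The complex I subunits mt-Nd6 and mt-Nd1 fell most, by 2.01 and 1.82, and mt-Nd1 was at 2160, 4470 and 6710 TPM. Among 38 respiratory subunits encoded in the nucleus 14 rose, 15 fell and 9 were not called, with a median of -0.13 (5 and 19 under median-of-ratios scaling). A lower mitochondrial share raises the TPM of all other genes. With these mRNAs left out and TPM rescaled, 5432 genes were higher and 3886 lower, so that 58.3% of the calls were higher.

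**Figure D5:**
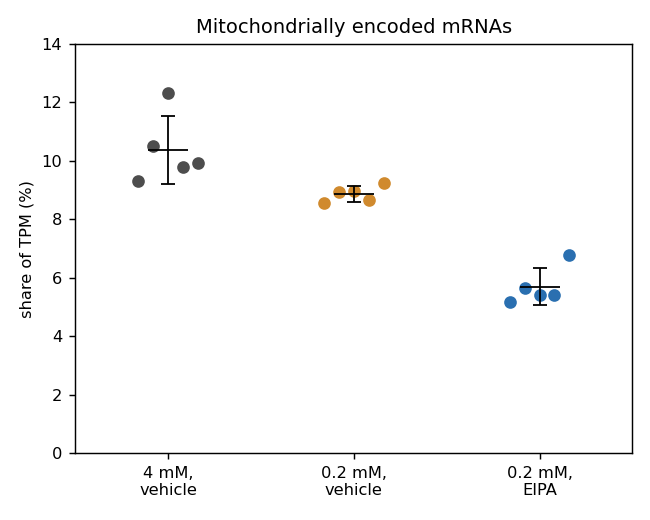
Share of TPM from the 13 mitochondrially encoded mRNAs in percent, with 1 point per library in the order of replicate numbers, a long bar for the mean of 5 and error bars of 1 SD. The EIPA libraries lie between 5.18 and 6.78%, below all shortage libraries (8.55 to 9.24%) and all replete libraries (9.30 to 12.31%).

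Oxidative stress genes were divided against replete. Of 25 NRF2 targets 12 rose, 10 fell and 3 were not called, with a median of -0.18 (11 and 12 under median-of-ratios scaling), against a median of -0.47 in shortage. The share that rose is near the 48.7% of all tested genes, of which 28.0% fell. With EIPA against shortage 24 of the 25 were higher and 0 lower, with a median of 0.53 (22 and 0 under median-of-ratios scaling). Of all tested genes 27.4% were higher in that comparison. Osgin1, a growth inhibitor induced by oxidative stress (chr8:119434124-119446256, plus strand), was at 101, 136, 110.3, 103 and 124 TPM with EIPA, 22.5, 27.2, 17.2, 15.4 and 15.1 TPM in shortage and 23.5, 19.2, 19.1, 17.2 and 15.2 TPM when replete. The 2 vehicle groups overlapped and every EIPA library was above them (2.37 ± 0.15, limma adjusted p = 1.9e-12). Gsta1, a glutathione transferase, rose by 2.31, at 6.07, 0.664 and 0.276 TPM, the antioxidant enzyme Txnrd1 by 0.79 and Hmox1, heme oxygenase, by 0.98. Gclm, of glutathione synthesis, and Mgst1, a membrane transferase, remained short of replete at -0.92 and -1.15. The antioxidant element TGACNNNGC on either strand was in 8 of 20 promoters of the list (40.0%), against 17.0% of promoters of all tested genes and 12.4% of all RefSeq promoters.

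The metallothioneins, small proteins that bind zinc and copper, rose with EIPA, and all 4 tested genes of the list with zinc export were called higher (3 under median-of-ratios scaling). Mt2 (chr8:94172664-94173568, plus strand) was at 2406, 2498, 2987, 1616 and 1583 TPM with EIPA, 255, 257, 245, 222 and 203 TPM in shortage and 123, 144, 134, 166 and 213 TPM when replete. EIPA replicates 4 and 5 were the lowest of theirs and still far above every replete library (3.63 ± 0.17, limma adjusted p = 4.4e-14). Mt1 was at 1890, 411 and 302 TPM (2.43 ± 0.14), and Slc30a1, a zinc exporter, rose by 0.89. Reads of Mt1 and Mt2 can be shared, as can those of Prl2c2 and its relatives, a prolactin-family gene past the replete level at 67.8, 2.49 and 12.4 TPM (2.40 ± 0.57).

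The largest rises of all were, by the same rule, those of Car6, Mt2, Ciart, Rragd, Havcr2, Ppp1r15a, Lck, Gadd45a, Avil and Chka. Car6, a secreted carbonic anhydrase, was at 91.2, 59.4 and 2.46 TPM (4.57 ± 0.24), so most of its rise was present in shortage. Havcr2, an immune receptor, was at 12.7, 1.41 and 0.282 TPM, and Lck, a kinase known from T cells, was at 24.6, 13 and 1.89 TPM although Cd3e was listed at 0. Chka, choline kinase, of phospholipid synthesis, was at 201, 169 and 22.8 TPM. Ciart, a repressor of the circadian clock, was at 107, 127, 122, 113 and 135 TPM with EIPA, 69.7, 72.0, 67.3, 75.1 and 44.4 TPM in shortage and 6.74, 8.38, 7.39, 7.89 and 12.1 TPM when replete. Each step was without overlap (3.53 ± 0.16, limma adjusted p = 2.8e-14). Of 16 clock genes 15 rose and 1 was not called, with a median of 0.80, close to the 0.84 of shortage (14 rose and 0 fell under median-of-ratios scaling). The receptor Rora rose by 1.86 and the cryptochrome Cry1 by 1.34.

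The 69 genes that stood within 0.5 of replete in shortage and at least 2-fold away with EIPA had Itgb7, Osgin1 and Etv5 at the upper end and Wnt11 and Tll1 at the lower. Itgb7, an integrin subunit, was at 7.47, 0.524 and 0.426 TPM (2.38 ± 0.17). Wnt11, a secreted signalling protein, was at 1.79, 13.3 and 11.1 TPM (-2.29 ± 0.18), and Tll1, a protease that processes collagen, at 3.84, 18.4 and 19.3 TPM (-2.24 ± 0.12). Without EIPA replicates 4 and 5 this set held 106 genes, 67 of them among the 69.

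Protein homeostasis and RNA genes complete the account. Of 22 chaperone and stress response genes of the endoplasmic reticulum 6 rose, 10 fell and 6 were not called, with a median of -0.31 (5 and 14 under median-of-ratios scaling). The factor Xbp1 fell by 1.34 and the chaperone Hspa5 by 0.67, whereas Dnajb9, a co-chaperone, rose by 1.48. Of 15 heat shock genes 9 rose and 4 fell (6 and 4 under median-of-ratios scaling), with Hspa1a, an inducible chaperone, at 1.10. Over all tested genes 48.7% rose and 28.0% fell. Of 31 proteasome genes 7 rose, 19 fell and 5 were not called, with a median of -0.35 (3 and 22 under median-of-ratios scaling). Of 57 genes of the cytosolic ribosome 39 rose, 8 fell and 10 were not called, with a median of 0.18 (34 and 15 under median-of-ratios scaling). Of 14 host genes of small nucleolar RNAs 10 rose and 2 fell, with a median of 1.04 against 0.93 in shortage (10 and 3 under median-of-ratios scaling). Snhg12 was at 321, 318 and 51.1 TPM (2.45 ± 0.08), where shortage had left it, and Snhg1 was at 772, 958 and 161 TPM (2.08).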

How the data were processed

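RNA was measured in 20 libraries, 5 per group. The deposited table holds TPM per gene. Per the submitters' processing notes, RSEM and mm10 were used, and per the labels' protocols poly(A) libraries were sequenced as paired reads. No source used here names the aligner or annotation. From the deposited TPM, log2(TPM + 1) values were computed and fitted with limma 3.58.1 (R 4.3.3, trend) as 4 groups over all 20 libraries (the other group, 4 mM glutamine with IL1a, adds only to the estimate of the spread), with Benjamini-Hochberg adjustment over 12350 genes, and this fit was tested on simulated data. Relative values subtract the median gene. Coordinates came from GENCODE M21.

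The members and lists were chosen with earlier results of these data known. Genes were named by rule: the 10 largest changes each way without overlap between groups, 2 per list and 5 per position class, all with at least 5 TPM, and a panel of well-known genes. Other list members were named after their values were seen. Alternatives changed pseudocount, filter, scaling, margin, replicate block and 1 library at a time, and leaving out EIPA replicates 4 and 5 together was chosen after seeing the data. Values of several single genes are not reported here.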

Additional observations from a re-analysis of the deposited data

Results flagged for a closer look

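Among 90 groups of 5 libraries of printed genes, 7 had 1 library far from the other 4, and chance flags about 1 in 20 groups. In shortage replicate 5 this held for Trib3 (238.88 TPM, the others 320.47 to 341.84), Asns (505.08, the others 627.66 to 666.63), Nars (635.80, the others 1014.83 to 1098.61) and Ciart (44.35, the others 67.32 to 75.08). In EIPA replicate 4 it held for Asns (527.25 TPM, the others 565.00 to 579.65). Plk1 was high in replete replicate 5 (99.51 TPM, the others 93.62 to 95.14), and Gpnmb was low in shortage replicate 4 (18.63 TPM, the others 24.31 to 26.40).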

How the results depend on the processing

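Of 363 recomputed counts, 350 stayed within 1.5 times the reported one or on its side of the threshold. Of 753 recomputed list medians 693 stayed within 1 SD between libraries, 58 moved by more and 2 changed sign from a median over 1 SD. With a pseudocount of 0.1, 32 genes were past the replete level and 175 undecided. With no filter, 984 genes rose at least 2-fold and the median of nuclear respiratory genes was 0.04. With a mean of at least 5 TPM, 414 genes were where shortage left them, 48 were undecided, 44 were near replete in shortage and 2-fold away with EIPA, and the glutamine list's median was -0.09. A margin of 0.3 gave 4 back, 33 past and 16 away with EIPA only, and 0.7 gave 70 and 175 for back and away. Without EIPA replicates 4 and 5, 106 were away. Leaving out 1 library at a time gave 5853 to 5979 higher and 3307 to 3510 lower against replete, 3081 to 3283 and 2333 to 2569 between EIPA and shortage, and 5422 to 5601 and 3322 to 3435 between shortage and replete. The 2-fold counts were 601 to 678 and 1141 to 1245. The classes held 23 to 30 back, 17 to 23 past, 241 to 295 short, 267 to 323 further, 613 to 706 left, 76 to 95 undecided and 56 to 84 away with EIPA only. The mitochondrial difference was -4.95 to -4.19 points. Same-numbered libraries correlated at -0.058 to 0.291 between EIPA and replete (2 of 5 best with their own number), 0.062 to 0.322 between EIPA and shortage (4 of 5) and 0.049 to 0.167 between shortage and replete (4 of 5). Acta2 and Tagln were lowest in replicate 5 of each group. No comparison had every pair over 0.1, and the main fit left the libraries unpaired. Whether same-numbered libraries are pairs was not tested, so values with the replicate block are given beside those of the main fit. With the replicate block 6109 genes were higher and 3541 lower against replete, 3530 and 2775 between EIPA and shortage, and 5699 and 3531 between shortage and replete, Scd2 and Ccn1 were called lower against replete (limma adjusted p = 0.0038 and 0.034), and the mitochondrial difference of -4.68 had an exact p of 0.062, the smallest 5 pairs allow. TPM keeps no depth, so scarce genes carry unknown counting error.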
